A study of Brachypodium distachyon with 4 samples.

Results

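The loci examined here are the chromosome neighbours of VRN1, FT1, FUL2 and FT2, the 4 flowering genes that were close to silent in leaves of the jmj1-1 mutant of the temperate grass Brachypodium distachyon. A neighbour is any locus of the deposited count table whose locus number lies within 200 of VRN1 (BRADI_1g08340v3), FT1 (BRADI_1g48830v3), FUL2 (BRADI_1g59250v3) or FT2 (BRADI_2g07070v3) on the same chromosome. The 4 genes themselves and the light receptor gene PHYC were left out. This gave 208 loci of the 35125 in the table, with 54 around VRN1, 56 around FT1, 49 around FUL2 and 49 around FT2. The choice used position only and no measured value of the neighbours, while the 4 genes at the centres had been picked for their fall. Locus numbers give the order of loci along a chromosome and not a distance in bases. Neither the files nor the RefSeq gene table used here joins these identifiers to names or descriptions, so the neighbours are called by identifier and position. The names of the flowering genes are published assignments cited from general knowledge.

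The libraries were made from leaf RNA of the inbred wild type Bd21-3 and of jmj1-1, which the labels place in the same line, with 2 libraries of each genotype. Per the labels, harvest was on day 17, when plants had reached leaf stage 4, at 10 h into the light period of a cycle with 20 h of light and 4 h of darkness. The labels neither describe the lesion of jmj1-1 nor tie the libraries to separate plants. The p-values therefore cover the spread among these 4 libraries alone, and that spread may be technical. No source used here names the JMJ1 locus, so its own transcript could not check the genotype labels.

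Proteins with a JmjC domain, the family that gives JMJ genes their name, remove methyl groups from lysines of histone tails. One such mark, trimethylation of histone H3 at lysine 27, is laid down by Polycomb complexes and accompanies silent genes in plants, and enzymes that erase it keep genes open to transcription. In Arabidopsis the mark usually covers single genes. VRN1 and FUL2 encode MADS-box factors of the FRUITFULL group that promote flowering in grasses, and FT1 and FT2 encode florigen-like proteins. The comparison asks whether the loss of transcript in jmj1-1 was limited to each flowering gene or reached the loci beside it. No chromatin mark was measured in the libraries used here.

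Each library held between 13825916 and 16520046 counted reads. Levels are given as CPM, read counts divided by library size after TMM scaling, which corrects for differences in composition. Fold changes come from edgeR's quasi-likelihood test over 21456 genes with enough reads. A locus is called when its Benjamini-Hochberg adjusted p over all those genes is under 0.05.

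The falls at the centres were sharp. Reads at VRN1 numbered 204 and 192 in the wild-type libraries against 1 in each mutant library. FT1 had 163 and 150 reads against 2 and 2, FUL2 had 93 and 74 against 2 and 1, and FT2 had 18 and 18 against 1 and 0. Their log2 changes were -7.39, -6.13, -5.62 and -4.79. These values chose the windows and are given as a description. Within a list of 9 flowering loci, chosen with earlier results known, these 4 genes and the photoperiod regulator PPD1 were called lower. The change of PPD1 was much smaller, at -0.38 on the log2 scale. The clock output gene GI was called higher, at 0.27, and PHYC, the repressor VRN2 and the clock gene ELF3 were not called.

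As a set, the loci around these genes were called about as often as any tested gene. Of the 208 neighbours, 116 had enough reads to test, and 16 of those were called, which is 13.8% against a background of 13.9% of all tested genes. In jmj1-1, 9 neighbours were lower (7.76%, background 7.75%) and 7 were higher (6.03%, background 6.13%). The median log2 change was 0.0055 over the tested neighbours and 0.0033 over all tested genes. The quartiles were -0.13 and 0.16 for the neighbours and -0.13 and 0.14 for all tested genes. Changes were small at most neighbours, with 110 of 116 (94.8%) under 1.5-fold, against 92.7% of all tested genes. A fall of 2-fold or more, called or not, was seen at 1 neighbour (0.862%, background 0.839%) and a rise of that size at 1 other (0.862%, background 1.90%). Both lay close to FUL2 in number.

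**Figure D1:**
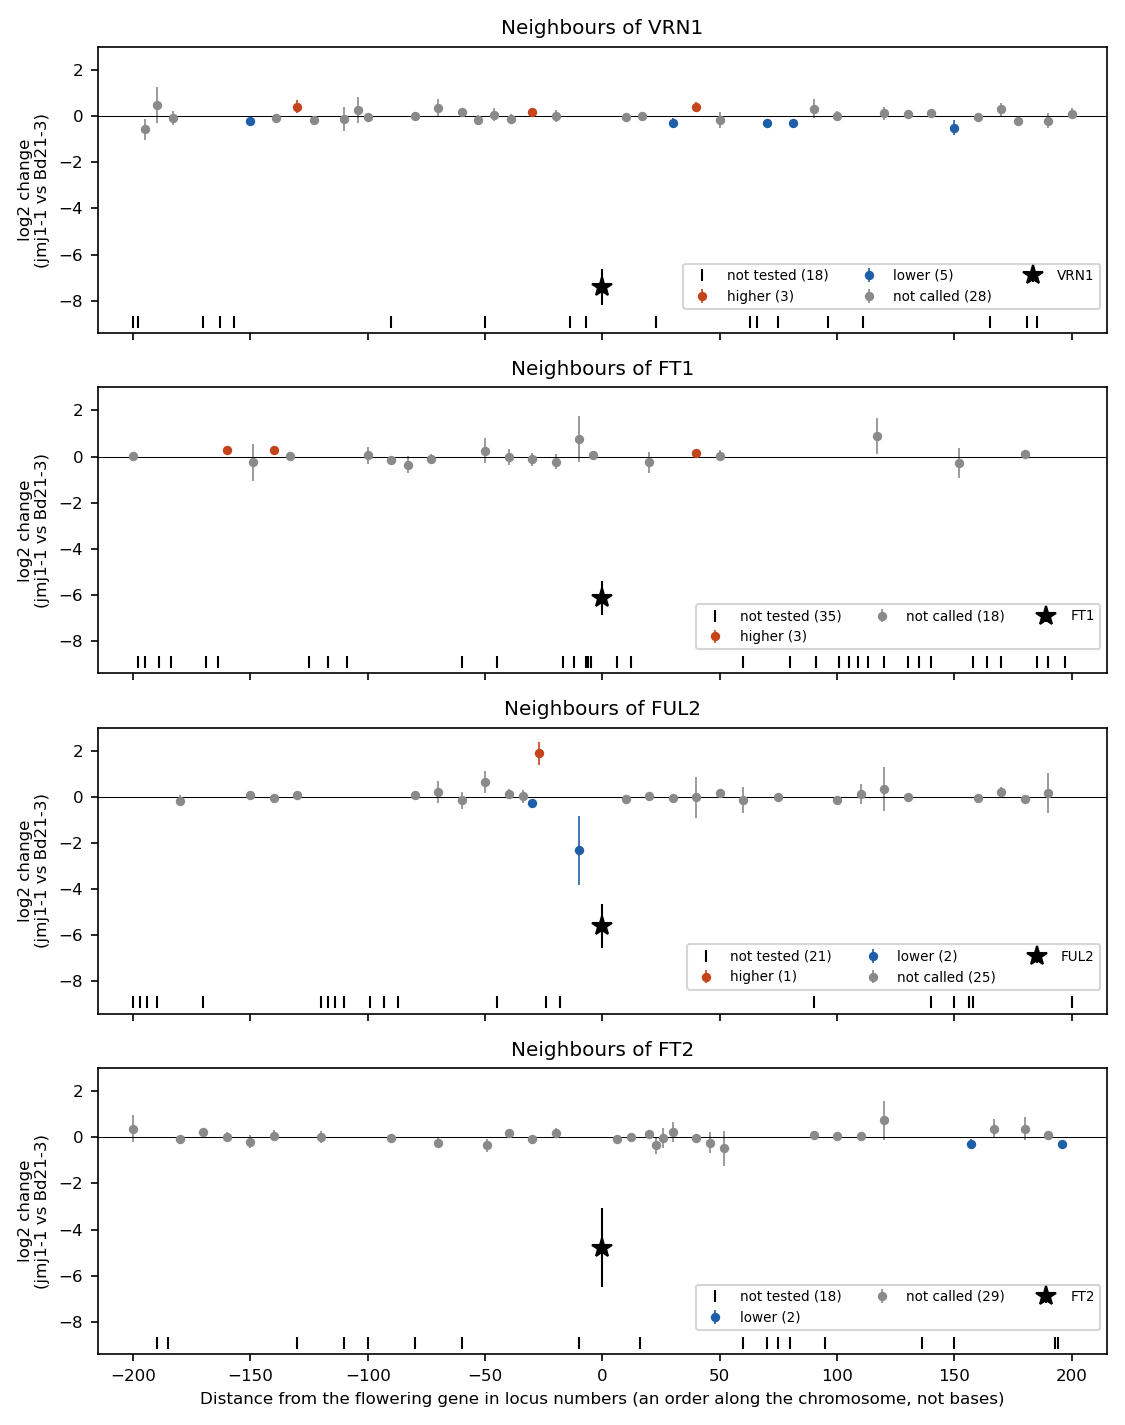
Log2 change of jmj1-1 against Bd21-3 for each tested locus, by its distance in locus numbers from VRN1, FT1, FUL2 or FT2, with bars for the 95% interval. Stars are the flowering genes, which lie between -7.39 and -4.79, ticks at the bottom are the 92 untested loci, and all tested neighbours but a pair beside FUL2 lie within 2-fold of no change.

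**Figure D2:**
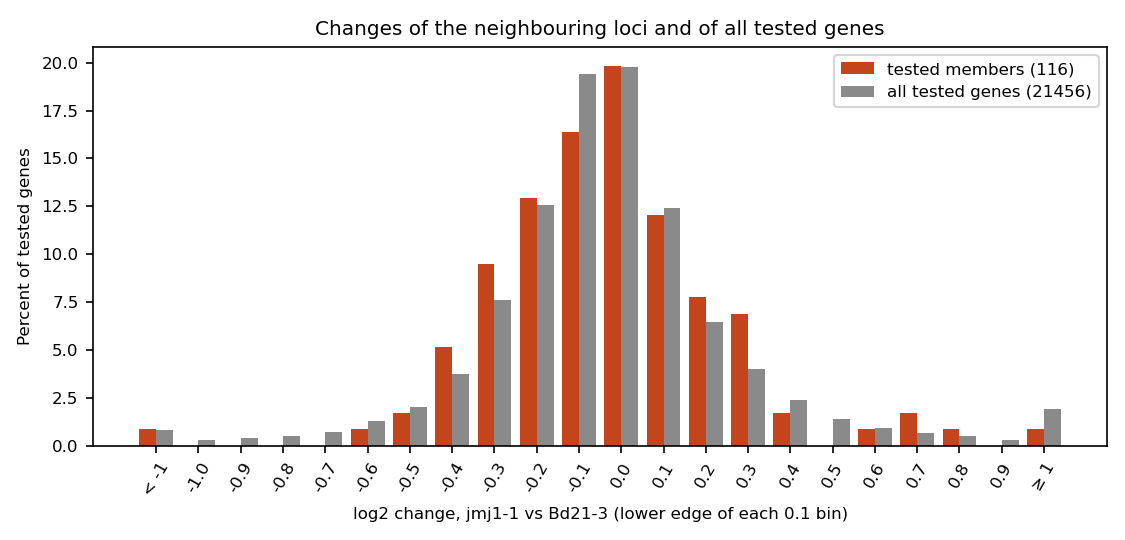
Share of tested loci in bins of log2 change, for the 116 tested neighbours and for all 21456 tested genes, in percent of each set. The medians, 0.0055 and 0.0033, fall in the same bin, and 1 neighbour lies in each of the outermost bins.

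With 1 library left out, 118 to 120 neighbours were tested. The count of calls depended on the libraries and the tool. Leaving out jmj1-1 replicate 1 lowered it to 7, leaving out jmj1-1 replicate 2 to 8 and leaving out Bd21-3 replicate 2 to 10. The share called among all tested genes was 8.17%, 8.96% and 12.9% in those fits, against 13.9% with all libraries. DESeq2 called 4 of 116 tested neighbours, beside 5.98% of all tested genes. The test without an expression filter, which tested more loci, called 7 of 166 neighbours, beside 6.29% of all tested genes. With library totals in place of TMM, 20 of 116 tested neighbours were called, 6 lower and 14 higher. Beside them, 14.8% of all tested genes were called and 5.33% were called lower. The median over all tested genes shifted to 0.057 on the log2 scale under that scaling.

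For most neighbours the data were precise enough to bound a fall. The 95% interval of the log2 change stayed above -1, a 2-fold fall, at 112 of the 116 tested loci. Among the 4 others, 1 was the locus next to FUL2. The remaining 3 were BRADI_1g08145v3, BRADI_1g48681v3 and BRADI_2g07122v3, singled out after their values were seen. They were not called, and their log2 changes were -0.57, -0.26 and -0.48 at 70 to 231 reads over all libraries.

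VRN1 stood between loci that were almost silent on one side and well read on the other. Below it, BRADI_1g08333v3 had 0 and 1 reads in Bd21-3 and 2 and 2 in jmj1-1, and BRADI_1g08326v3 had 0 and 4 against 3 and 1. Too few reads fell on either locus for a test. The first tested locus below VRN1, BRADI_1g08320v3, was at 12.8 and 10.8 CPM in Bd21-3 and at 12.9 and 10.7 CPM in jmj1-1. Its log2 change was 0.0055 (SE 0.13, 95% interval -0.26 to 0.27).

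On the other side the genotypes overlapped as well. BRADI_1g08350v3, the first locus above VRN1, was at 42.9 and 38.2 CPM in Bd21-3 and at 38.9 and 41.0 CPM in jmj1-1, a log2 change of -0.023 (SE 0.074, 95% interval -0.17 to 0.12). BRADI_1g08357v3, the next locus, was at 96.8 and 97.4 CPM against 98.0 and 96.6 CPM, a log2 change of 0.0036 (SE 0.053). At these 3 tested loci nearest to VRN1 the replicates of a genotype differed as much as the genotypes did. The sign of each of the 3 log2 changes turned under at least 1 alternative setting.

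Over the whole VRN1 window, these 3 loci included, 8 of 36 tested loci were called (22.2%, background 13.9%), 5 of them lower and 3 higher. Whether this share differs from the background was not tested. The nearest called locus below VRN1 was BRADI_1g08310v3, the 4th, which was higher (log2 change 0.17, SE 0.047, edgeR adjusted p = 0.0078). Its call was lost in DESeq2 (adjusted p = 0.078), among other settings. The nearest called locus that was lower was BRADI_1g08370v3, the 4th above VRN1. It was at 19.3 and 20.0 CPM in Bd21-3 and at 15.2 and 16.9 CPM in jmj1-1, a log2 change of -0.30 (SE 0.10, adjusted p = 0.047 by edgeR). That call was lost in 9 of 13 alternative settings, among them with any of the 4 libraries left out (edgeR adjusted p = 0.061 to 0.41). The locus beside it, BRADI_1g08380v3, went the other way, from 14.02 and 11.5 CPM to 16.004 and 17.8 CPM (log2 change 0.40, SE 0.12, edgeR adjusted p = 0.013). Without Bd21-3 replicate 2 its log2 change was 0.26 and the call was lost (edgeR adjusted p = 0.22), and the call was also lost without jmj1-1 replicate 2 (0.16), within a range of 0.0022 to 0.24 over the settings.

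The longest run of tested loci called lower was a pair, BRADI_1g08410v3 and BRADI_1g08421v3, just beyond PHYC in number. The first was at 47.8 and 52.9 CPM in Bd21-3 and at 40.2 and 40.8 CPM in jmj1-1, a log2 change of -0.31 (SE 0.070, edgeR adjusted p = 6.60e-04), and it was called in every setting tried. The second was at 32.2 and 32.5 CPM against 27.1 and 25.4 CPM, a log2 change of -0.30 (SE 0.082, edgeR adjusted p = 0.0074). The call of the second was lost without jmj1-1 replicate 2 (edgeR adjusted p = 0.13) and in DESeq2 (adjusted p = 0.18), in a range of 0.0049 to 0.18. PHYC itself stood at 117 and 123 CPM for wild type and 109.6 and 109.8 CPM for the mutant, and it was not called (log2 change -0.13, edgeR adjusted p = 0.083). The largest called fall of the window, at BRADI_1g08490v3, was from 8.46 and 8.21 CPM to 6.13 and 5.66 CPM, a log2 change of -0.50 (SE 0.17, edgeR adjusted p = 0.033). The largest called rise, at BRADI_1g08210v3, was from 8.15 and 8.59 CPM to 10.5 and 11.8 CPM, a log2 change of 0.41 (SE 0.14, edgeR adjusted p = 0.041). Leaving out any library ended the calls of these last loci, with adjusted p from 0.065 to 0.19 for the fall and from 0.066 to 0.28 for the rise.

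Around FT1 no tested neighbour was called lower (0%, background 7.75%), though 9 of the 21 tested loci had a negative log2 change. Calls of a rise numbered 3 (14.3%, background 6.13%), and 18 loci were not called. BRADI_1g48826v3, directly below FT1 in number, was at 39.2 and 43.0 CPM in Bd21-3 and at 42.6 and 44.2 CPM in jmj1-1. Its log2 change was 0.078 (SE 0.072, 95% interval -0.065 to 0.22), and the genotypes overlapped. The locus below that, BRADI_1g48825v3, had no read in any library.

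Above FT1 the next loci held few reads. BRADI_1g48836v3 had 2 and 2 reads in Bd21-3 and 1 and 0 in jmj1-1, a ratio of 3.80 after scaling with an exact 95% interval of 0.376 to 187, which covers counting error only. BRADI_1g48842v3 had 1 and 1 reads against 2 and 0. The first tested locus on that side, BRADI_1g48850v3, was at 3.64 and 4.30 CPM in Bd21-3 and at 3.13 and 3.54 CPM in jmj1-1. Both jmj1-1 libraries lay below both Bd21-3 libraries there, but the locus was not called (log2 change -0.26, SE 0.23, 95% interval -0.72 to 0.20, edgeR adjusted p = 0.56).

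The called loci of the FT1 window were small rises. BRADI_1g48690v3 had the largest, from 45.2 and 52.8 CPM to 60.2 and 58.3 CPM, a log2 change of 0.27 (SE 0.067, edgeR adjusted p = 0.0020). Without Bd21-3 replicate 1 it was 0.17 and not called (edgeR adjusted p = 0.15, within a range of 1.03e-05 to 0.15). The other 2, BRADI_1g48670v3 and BRADI_1g48870v3, had log2 changes of 0.27 and 0.16, and each lost its call in 6 of 13 settings. The first was lost with any of the 4 libraries left out (edgeR adjusted p = 0.070 to 0.30). The second was lost without Bd21-3 replicate 2 (log2 change 0.062, edgeR adjusted p = 0.59) or jmj1-1 replicate 1 (0.10, edgeR adjusted p = 0.49). This window also held the most untested loci, 35 of 56, and 20 of them had no read at all.

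Directly below FUL2 in number, BRADI_1g59240v3 was called lower. It had 11 reads in each wild-type library and 0 and 4 reads in the mutant libraries. In CPM it was at 0.680 and 0.695 in Bd21-3 and at 0 and 0.283 in jmj1-1, so both mutant libraries were lower. The reads summed over each genotype were 22 and 4, a ratio of 5.23 after scaling (exact 95% interval 1.78 to 20.9, counting error only). The log2 change was -2.32 (SE 0.75, 95% interval -3.81 to -0.82, edgeR adjusted p = 0.026).

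That call rested on few reads. It was the tested neighbour with the fewest, 26 over all libraries. Without jmj1-1 replicate 1 the log2 change was -1.26 and the adjusted p 0.49 in edgeR, the highest over the settings, and without either Bd21-3 library the adjusted p was 0.071 or 0.067 in edgeR. The call was also lost in DESeq2 (adjusted p = 0.39) and without the expression filter (edgeR adjusted p = 0.16), and the lowest adjusted p was 0.0050 in limma-voom. With jmj1-1 replicate 2 left out, the mutant had no read at this locus, so the fit of -6.48 sets no limit. Whether reads of adjoining or overlapping genes were shared between this locus and FUL2 was not tested, since the files give no coordinates and no source used here states the strand setting.

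The next loci below FUL2 differed among themselves. BRADI_1g59232v3 had 8 and 7 reads in Bd21-3 and 4 and 6 in jmj1-1, a ratio of 1.43 (exact 95% interval 0.599 to 3.55), and was not tested. BRADI_1g59223v3, the 4th below FUL2, rose. It had 31 and 19 reads in Bd21-3 and 102 and 74 in jmj1-1, or 1.92 and 1.20 CPM against 6.25 and 5.24 CPM. Its log2 change of 1.88 (SE 0.26, edgeR adjusted p = 4.78e-08) corresponds to 3.69-fold, and it was called in every setting tried.

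BRADI_1g59220v3, the 5th below FUL2 and one of the loci singled out after their values were seen, fell by a small factor. It was at 1896 and 1808 CPM in Bd21-3 and at 1563 and 1539 CPM in jmj1-1, a log2 change of -0.26 (SE 0.034, edgeR adjusted p = 2.64e-08). Both jmj1-1 libraries were lower, and the call held in every setting tried. The loci called lower, higher and lower again within 30 locus numbers of FUL2 were the only called neighbours of its window, 3 of 28 tested (10.7%, background 13.9%).

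Above FUL2 none of the 15 tested loci was called by edgeR, and 2 of them had an unadjusted p under 0.05. BRADI_1g59260v3, directly above, was at 33.3 and 29.2 CPM in Bd21-3 and at 29.3 and 28.9 CPM in jmj1-1, a log2 change of -0.10 (SE 0.083, 95% interval -0.27 to 0.063). BRADI_1g59270v3, the next, was at 69.5 and 68.7 CPM against 71.8 and 68.5 CPM (log2 change 0.023, SE 0.059). The genotypes overlapped at both.

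FT2 had no called neighbour near it. Directly below, BRADI_2g07060v3 had 1 read in Bd21-3 replicate 1 and none in the other libraries. BRADI_2g07050v3, the next, was at 20.8 and 20.0 CPM in Bd21-3 and at 25.02 and 21.8 CPM in jmj1-1, higher in both mutant libraries but not called (log2 change 0.20, SE 0.095, edgeR adjusted p = 0.17). Above FT2, BRADI_2g07076v3 was at 58.9 and 56.3 CPM against 55.0 and 52.7 CPM, lower in both mutant libraries and not called (log2 change -0.095, SE 0.064, 95% interval -0.22 to 0.032). BRADI_2g07082v3 was at 32.8 and 30.7 CPM against 32.6 and 31.3 CPM, with overlapping genotypes.

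In all, 2 of the 31 tested loci of the FT2 window were called (6.45%, background 13.9%), both lower and both far out. BRADI_2g07227v3 was the 22nd locus above FT2 and BRADI_2g07266v3 the 28th. The latter was at 75.2 and 66.3 CPM in Bd21-3 and at 56.0 and 58.3 CPM in jmj1-1, a log2 change of -0.31 (SE 0.063, edgeR adjusted p = 1.76e-04), and was called in every setting tried. BRADI_2g07227v3 had a log2 change of -0.30 (SE 0.10) and lost its call in 6 of 13 settings, among them without Bd21-3 replicate 2, jmj1-1 replicate 1 or jmj1-1 replicate 2 (edgeR adjusted p = 0.228, 0.0595 and 0.285).

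**Figure D3:**
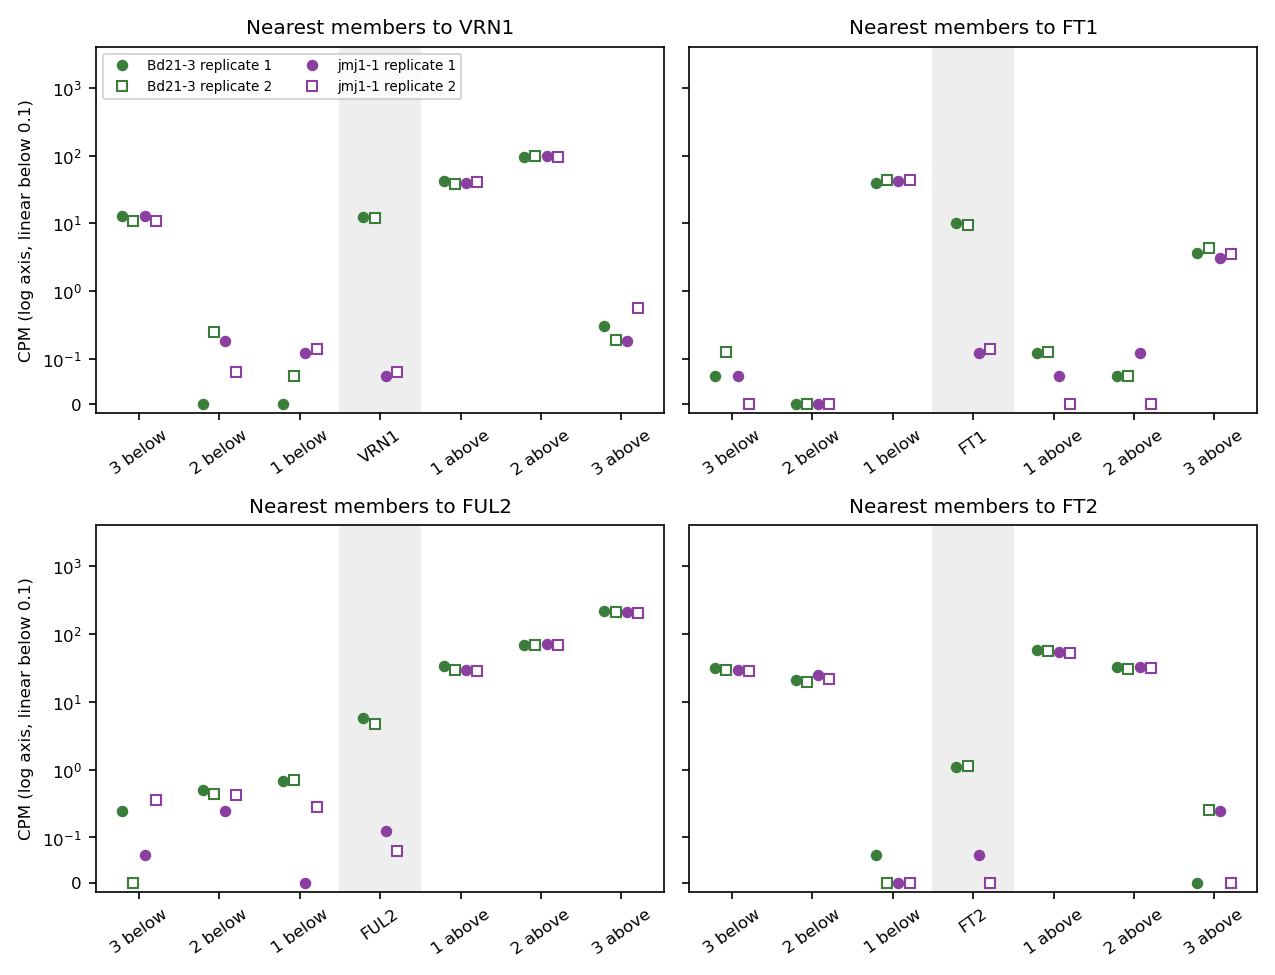
CPM in each of the 4 libraries for VRN1, FT1, FUL2 and FT2 (grey band) and for the 3 nearest loci on each side, on a log axis that is linear below 0.1. Green marks are Bd21-3 and purple marks jmj1-1, and the genotypes part widely at the 4 flowering genes while they overlap or nearly meet at the well-read loci beside them.

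Calls were also counted by distance over all windows. Among the 2 nearest loci on each side of each gene, 16 loci, 9 were tested and 1 was called by edgeR (11.1%, background 13.9%). It was the low-count locus beside FUL2. Among the 5 nearest loci on each side, 7 of 28 tested were called (25%, background 13.9%), 3 lower (10.7%, background 7.75%) and 4 higher (14.3%, background 6.13%). Within 50 locus numbers, 3 of 41 tested loci were lower (7.32%). In the next band, out to 100, 2 of 24 were lower (8.33%). It was 2 of 25 in the band out to 150 (8.0%) and 2 of 26 in the outermost (7.69%), each beside a background of 7.75%. Loci called higher numbered 4 (9.76%), 0, 2 (8.0%) and 1 (3.85%) in the same bands, beside a background of 6.13%. In the band with no call in that direction by edgeR, 4 loci had an unadjusted p under 0.05 in either direction. The median log2 change was 0.0036 in the innermost band, then -0.045, 0.066 and 0.015. Neither the bands nor the nearest loci were tested against the rest.

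Over all windows together, the libraries showed the same balance without a threshold. Both jmj1-1 libraries lay below both Bd21-3 libraries at 30 of the 116 tested neighbours (25.9%, background 25.3%), and above them at 31 (26.7%, background 25.5%). By sign alone, 55 tested neighbours had a negative log2 change and 61 a positive one. Single windows varied. Around VRN1 both mutant libraries were below at 14 of 36 loci (38.9%, background 25.3%) and above at 10 (27.8%, background 25.5%). Around FT1 this was so at 2 of 21 (9.52%) and 6 (28.6%). The window of FUL2 had 7 of 28 below (25%) and 6 above (21.4%), and that of FT2 had 7 of 31 (22.6%) and 9 (29%). Whether any window differs from the background was not tested.

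The remaining 92 neighbours had too few reads to test. No read fell on 42 of them in any library. The 50 others had a median of 6 reads over all 4 libraries and at most 34. Together the untested loci drew 125 and 120 reads from the wild-type libraries and 121 and 106 from the mutant libraries. For 1 of the 50, the exact 95% interval of the read ratio left out 1, and there the mutant was higher. This locus, BRADI_2g07150v3, was chosen after its values were seen. It had 1 and 0 reads in Bd21-3 and 6 and 9 in jmj1-1. Such intervals cover counting error only, and no allowance was made for looking at 50 of them. A fall at a locus that was already silent in the wild type could not be detected at this depth.

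Summed over each window with the flowering gene left out, the level of the neighbourhood stayed close to that of the wild type. Around VRN1 it was 1140.2 and 1134 CPM in Bd21-3 and 1133 and 1133 CPM in jmj1-1, a log2 difference of -0.0055. Around FT2 it was 705 and 699 CPM against 704 and 690 CPM, a log2 difference of -0.011. Around FT1 it was 688 and 672 CPM in Bd21-3 and 727 and 718 CPM in jmj1-1, higher in both mutant libraries by 0.087 on the log2 scale. Around FUL2 it was 3340 and 3270 CPM against 2985 and 2979 CPM, lower in both mutant libraries by a log2 difference of -0.15.

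The FUL2 sum was carried by 1 locus. BRADI_1g59220v3 made up 54.1% of it. Without that locus the sums were 1444 and 1462 CPM in Bd21-3 and 1422 and 1440 CPM in jmj1-1, a log2 difference of -0.022. In the FT1 window the most abundant locus made up 42.2%, and without it the log2 difference was 0.083. The sums were not tested. In bulk leaf RNA, fewer cells of a type and less RNA per cell cannot be told apart.

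**Figure D4:**
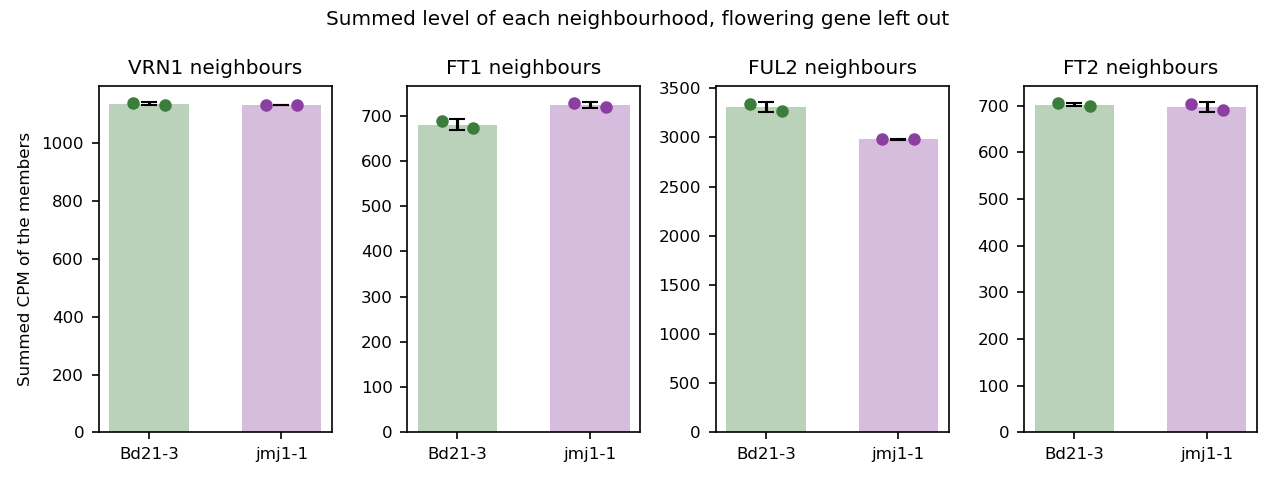
Summed CPM of the neighbours of VRN1, FT1, FUL2 and FT2 in Bd21-3 and jmj1-1, with bars for the mean, error bars for the SD (n = 2) and points for the libraries. The log2 difference is -0.0055 around VRN1 and -0.011 around FT2, and jmj1-1 is higher around FT1 (0.087) and lower around FUL2 (-0.15).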

How the data were processed

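The authors deposited raw read counts, 1 column for each of 4 libraries, per the file headers and values. Tools named in the submitters' processing notes are cutadapt, HISAT2, SAMtools and featureCounts. No source used here gives the genome build, annotation, strand setting or handling of multiply matching reads.

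Columns were matched to samples by title. Genes were kept by filterByExpr, scaled by TMM and tested with edgeR 4.0.16 (quasi-likelihood F-test, newer method, two-sided) in R 4.3.3, fitted on the whole table and adjusted by Benjamini-Hochberg. Standard errors are the absolute log2 change divided by the square root of F, and 95% intervals use the t distribution with the test's degrees of freedom. Read ratios carry exact Clopper-Pearson intervals. Alternatives used limma 3.58.1, DESeq2 1.42.0, other scalings, filters, window widths and left-out libraries.

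Neighbours, lists and tests were chosen with earlier results of these data known. Named loci were the 2 nearest on each side of each flowering gene, the first tested one where both lacked reads, and the largest called changes per window and over all windows. The other called loci named, and those so marked in the text, were chosen after their values were seen. Replicates were not copies of each other: chi-square per degree of freedom, over gene counts, came to 2.41 within Bd21-3 and 1.85 within jmj1-1.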

Additional observations from a re-analysis of the deposited data

How the results depend on the processing

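The main test called 16 neighbours, 9 lower and 7 higher. The upper quartile and RLE scalings, limma-voom, the likelihood ratio test and, chosen after seeing the data, edgeR's older quasi-likelihood method gave 15 or 16. These counts, of 116 tested, stood beside 13.5% to 13.9% of all tested genes. Library totals gave 20 (6 lower, 14 higher), beside 14.8% of all tested genes. Without the expression filter there were 7 of 166 tested (5 lower, 2 higher), beside 6.29% of all tested genes. In DESeq2 there were 4 of 116 (3 lower, 1 higher), beside 5.98%. At an adjusted p of 0.01, a stricter threshold, there were 8 of 116 (5 and 3), beside 9.11%. Windows of 100 and 300 locus numbers, which hold fewer and more loci, gave 9 of 65 tested (5 and 4) and 27 of 181 tested (16 and 11). For both widths the background was 13.9% of all tested genes. Leaving out 1 library gave 7 to 13 calls, 4 to 7 lower and 3 to 6 higher, beside 8.17% to 12.9% of all tested genes against 13.9% with every library, in fits with less power that lend the single remaining library the spread of the other genotype. The replicate block gave 17 calls of 116 tested, beside 14.6% of all tested genes, and kept all 16. Nothing in the labels pairs the libraries, and their deviations correlated at -0.018. Of the 16 called neighbours, 4 kept their call in all 13 settings in which single loci were refitted (BRADI_1g08410v3, BRADI_1g59220v3, BRADI_1g59223v3 and BRADI_2g07266v3), 12 lost it in at least 1, and none changed sign.

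Among the named loci, signs turned only at uncalled ones near 0, which stayed uncalled. BRADI_1g08350v3 was at 0.030 with library totals, BRADI_1g08357v3 at -0.0015 without the filter and BRADI_1g08320v3 at -0.0013 with the replicate block. With 1 library left out they ranged from -0.11 to 0.062, from -0.0069 to 0.015 and from -0.14 to 0.13, BRADI_1g59270v3 from -0.012 to 0.058 and BRADI_2g07082v3 from -0.038 to 0.057.

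The log2 difference of the summed CPM with library totals was 0.048 around VRN1, 0.14 around FT1, -0.094 around FUL2 and 0.043 around FT2, and with the upper quartile it was 0.00077 around VRN1. Within 100 locus numbers it was 0.0076, 0.040, -0.19 and 0.018, and within 300 it was -0.039, 0.025, -0.13 and -0.033, in the same order. The FUL2 value ranged from -0.16 to -0.13 with 1 library left out. The cause of these shifts was not tested. At 13825916 to 16520046 reads per library, loci such as BRADI_1g59240v3 rest on few reads.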

Other observations

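Locus numbers that end in 0 and those in between differed in how often they had enough reads to test. Of the 117 neighbours whose number ends in 0, 85 were tested (72.6%), and of the 91 others 31 were (34.1%). Over all numbered loci of the chromosomes the shares were 79.4% of 18978 and 41.1% of 15325. What sets these loci apart was not tested.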
